A study of Homo sapiens with 18 samples.

Results

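PC-3 cells forced through a needle were compared with cells left in still suspension, 12 h afterwards, across all genes with enough counts to test. The comparison used 6 of the 18 libraries of the series, 3 of sheared and 3 of static cells, taken by the treatment and time in the sample labels. PC-3 is an established human prostate cancer line that came from a bone metastasis and grows without androgen. Cells of both groups were detached, put in serum-free DMEM with insulin, transferrin, selenium and 5 mg/mL bovine serum albumin, and the sheared cells were then pushed from a 5 mL syringe through a 30-gauge needle at 250 µL per second. Static cells stayed in suspension meanwhile. Both groups were afterwards kept in wells coated with poly-HEMA, a polymer to which cells do not attach, so the static cells are detached and serum-deprived cells and not an adherent culture. RNA was taken from the cytosol, after lysis with the mild detergent NP-40 and removal of the pellet. Per the series' design, the sheared and static library with the same replicate number came from 1 pool of cells. These are called pools 1, 2 and 3 here, and all are pools of a single line.

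Tumour cells that enter the blood lose their attachment and meet fluid forces for short times. Cells answer mechanical and metabolic stress partly through transcription: SREBP factors set the enzymes of sterol and fatty acid synthesis, interferons act through STAT and IRF factors that bind a short promoter element, and growth factors act through MAPK signalling, which induces its own inhibitors. The mRNAs of the ribosome and of the elongation factors share a 5′ terminal oligopyrimidine tract through which growth signals set their translation, and they are among the most abundant mRNAs of a growing cell.

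Depth was 16400487 to 19307595 counts in the static libraries and 18521265 to 21593071 in the sheared ones. The TMM factor, edgeR's correction for the make-up of a library, was 1.10 ± 0.0189 (SD, n = 3) in static and 0.986 ± 0.0442 in sheared libraries. The 100 most abundant genes took 18.8% ± 0.605 of static and 22.6% ± 1.40 of sheared counts, and the number of genes detected was 18141 ± 112 and 17836 ± 142. The first principal component of the 6 libraries, with 42.1% of the variance, set static (-32.0 to -17.0) apart from sheared libraries (18.7 to 32.0). The second, with 25.0%, had sheared pool 1 at 35.3 at one end and sheared pool 3 at -24.5 and static pool 3 at -22.2 at the other. KLK2, KLK3 and PCA3, which mark androgen-dependent prostate cells, were at 0 in all 6 libraries, and the 10 PC-3 markers summed to 6150 to 6303 CPM (counts scaled to the library total) when static and 5526 to 6386 CPM when sheared. The whole list of 13 androgen-dependent markers gave 492 to 594 CPM in the static group against 314 to 394 CPM in the sheared group, and 12 fibroblast and endothelial markers gave 116 to 134 and 68.0 to 78.7 CPM. Of these, HOXB13, STEAP2, PECAM1 and PDGFRA fell, and none of the 12 was at 0 in every library. The 12 haematopoietic markers summed to 37.6 to 40.5 and 35.7 to 51.4 CPM, most of it CD68, with HBB and MS4A1 among those at 0. The list of 7 nuclear-retained RNAs came to 766 to 882 CPM in the static group and 550.2 to 675 CPM in the sheared group, but most of this was NORAD, at 474 to 560 and 309 to 434 CPM, which is known as a mainly cytoplasmic RNA, so the sum is no measure of nuclear RNA. Of the classical nuclear RNAs, MALAT1 was at 38.8 to 42.9 and 28.2 to 37.6 CPM and NEAT1 at 104 to 124 and 99.0 to 130.5 CPM, and neither passed the test. The part of any of these differences in the results below was not tested. Calls were lost for PECAM1 without pool 2, and HOXB13, PDGFRA and STEAP2 without any one of the pools (adjusted p 0.058 to 0.323).

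Of 15189 genes tested at 12 h, 956 were higher after shear and 691 lower (adjusted p below 0.05), so the background is 6.29% higher, 4.55% lower and 10.8% in either direction. Genes past this threshold are the ones said to rise or fall. The typical change was modest: the median over the rises was 0.57 on the log2 scale and over the falls -0.66, and 101 rises (0.665% of the genes tested) and 154 falls (1.01%) reached 2-fold. All 3 sheared libraries lay above all 3 static libraries for 2216 genes (14.6%) and below them for 2183 (14.4%), and 1478 of the 1647 called genes were among these. All but 1 of the called genes moved the same way in all 3 pools. A bulk library cannot tell fewer cells of a type from less RNA per cell, and levels here are shares of the cytosolic RNA of a library. The split by direction depends on scaling. With library totals in place of TMM factors, an alternative added after the data were seen, 425 genes rose and 1441 fell, and the median of all genes moved from -0.01 to -0.16. Without pool 1 the counts were 357 and 245, without pool 2 they were 196 and 165, and without pool 3 they were 728 and 453. Of the 1647 calls, 253 (135 higher and 118 lower) held whichever single pool was left out. Without the block for pool, 183 genes rose and 137 fell. Leaving out replicate 3 of the 24 h libraries, which share the estimate of spread, gave 1553 and 1138. The authors' deposited table, made with DESeq2, has 448 higher and 350 lower genes at its adjusted p below 0.05 among the genes tested here, and 446 and 348 of them were also called here.

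**Figure D1:**
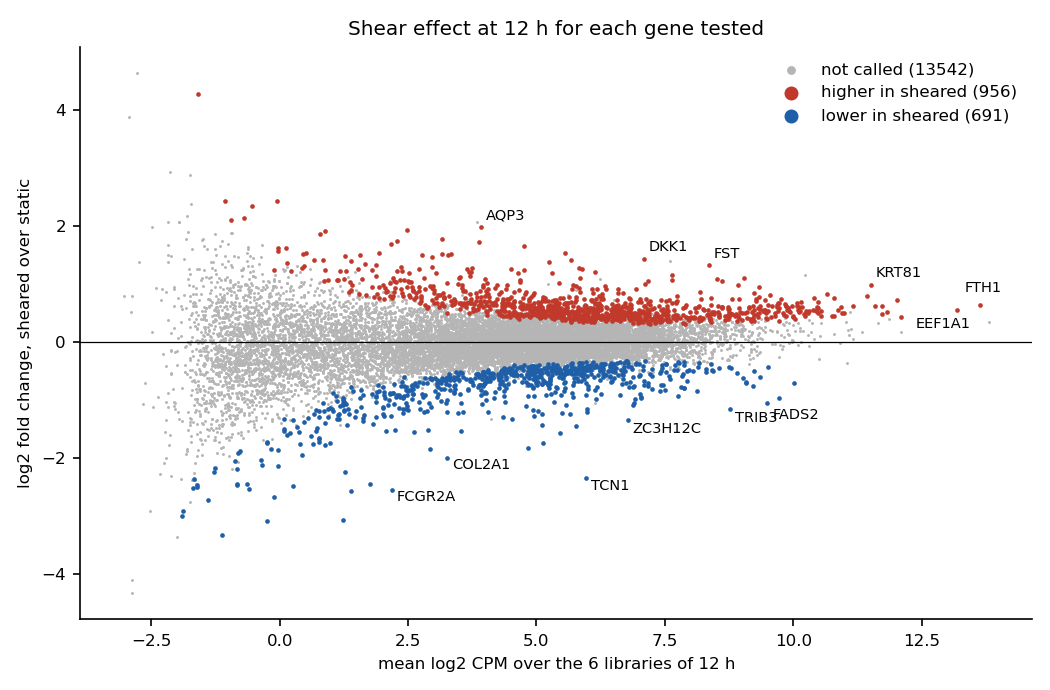
Change at 12 h against abundance: the x axis is the mean log2 CPM of the 6 libraries and the y axis the log2 fold change of sheared over static cells, with 1 point per gene for 13542 genes not called, 956 higher and 691 lower. The rises crowd towards the abundant end on the right, and the deepest falls are at low and middle abundance.

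Rises were concentrated among abundant genes. When the genes tested were put in 5 equal bins from least to most abundant, the share that rose was 1.12%, 3.95%, 4.97%, 7.37% and 14.1%, while the share that fell was 2.8%, 4.81%, 4.74%, 5.76% and 4.64%. Length was taken as the median over all GENCODE transcripts of a gene, partial ones included, for the 14732 genes that had one. Genes with short transcripts by this measure rose more often, at 8.61% of the shortest and 3.33% of the longest of 5 equal bins. They fell less often, at 4.25% and 6.49%. The shortest bin ran from 56 to 699 bases. Without the ribosomal and related lists the share of rises in the shortest bin was 6.76%. Of 1065 long noncoding RNAs, 41 rose and 28 fell, both shares below the background of 6.29% higher and 4.55% lower. Zinc finger genes of the ZNF series, 442 of those tested, had 7 rises, 13 falls and a median of -0.17, also with both shares below the background.

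The largest rises by fold included surface, signalling and transport proteins of low to middle abundance. CPM values of single genes are scaled with the TMM factors. SPNS2, which exports sphingosine 1-phosphate from cells, had 6.28, 4.29 and 6.84 CPM in the static libraries and 10.5, 15.4 and 25.3 CPM in the sheared libraries, and the groups did not overlap. Its log2 fold change was 1.5 ± 0.26 (edgeR's quasi-likelihood test, adjusted p = 0.00199). SPHK1, the kinase that makes sphingosine 1-phosphate and was looked up after its values were seen, rose by 0.67 (adjusted p = 0.0113). NPR3, the clearance receptor for natriuretic peptides, went from 4.0 ± 0.581 to 11.4 ± 2.06 CPM, with a log2 fold change of 1.51 ± 0.25. Libraries of OXTR, the oxytocin receptor, held 6.11, 5.57 and 6.07 CPM when static and 14.1, 16.1 and 21.4 CPM when sheared. MARCHF4, a membrane-bound ubiquitin ligase, had 2.94, 2.27 and 3.32 CPM in the static libraries and 8.16, 9.98 and 14.8 CPM in the sheared libraries. For both, every sheared library was above every static one. AQP3, a channel for water and glycerol, had the largest fold of the named rises at 1.99 ± 0.19, from 7.55 ± 0.701 to 30.5 ± 8.49 CPM. ARL14, a small GTPase, rose by 1.52, OSBP2, an oxysterol-binding protein, by 1.53 and PROSER2 by 1.65. Significance was lost for SPNS2 without pool 2, and SPHK1 without pool 2 or pool 3 (adjusted p 0.0549 to 0.143). Scaling by library totals also lost SPHK1 (adjusted p 0.0677).

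SOCS3, the feedback inhibitor of cytokine receptors that signal through JAK and STAT3, had 32.8, 25.5 and 35.9 CPM in the static libraries and 90.1, 98.1 and 65.5 CPM in the sheared libraries. Its libraries did not overlap and its log2 fold change was 1.42 ± 0.17 (adjusted p = 7.62e-05). DKK1, a secreted inhibitor of Wnt receptors, went from 83.3 ± 8.45 to 237 ± 103 CPM, a change of 1.42 ± 0.22. PDE4B, which degrades cyclic AMP, had 5.06, 4.64 and 4.19 CPM in static and 14.1, 10.4 and 13.9 CPM in sheared cells. FST, which encodes follistatin, the extracellular trap of activins, was named after its values were seen because it had one of the smallest p-values. It had 213, 209 and 198 CPM in the static libraries and 494, 546 and 518 CPM in the sheared libraries, a change of 1.33 ± 0.11 (adjusted p = 4.82e-06). RPSAP52 lies antisense to HMGA2, and the strand setting of the counts is not given in the sources used here, so their reads cannot be told apart. RPSAP52 went from 4.84 ± 1.07 to 16.4 ± 0.233 CPM, and HMGA2, at 106 ± 1.2 and 111 ± 10.2 CPM, had a change of 0.06 ± 0.11 (adjusted p = 0.774). The calls of SOCS3, DKK1, PDE4B, FST and RPSAP52 held whichever pool was left out.

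**Figure D2:**
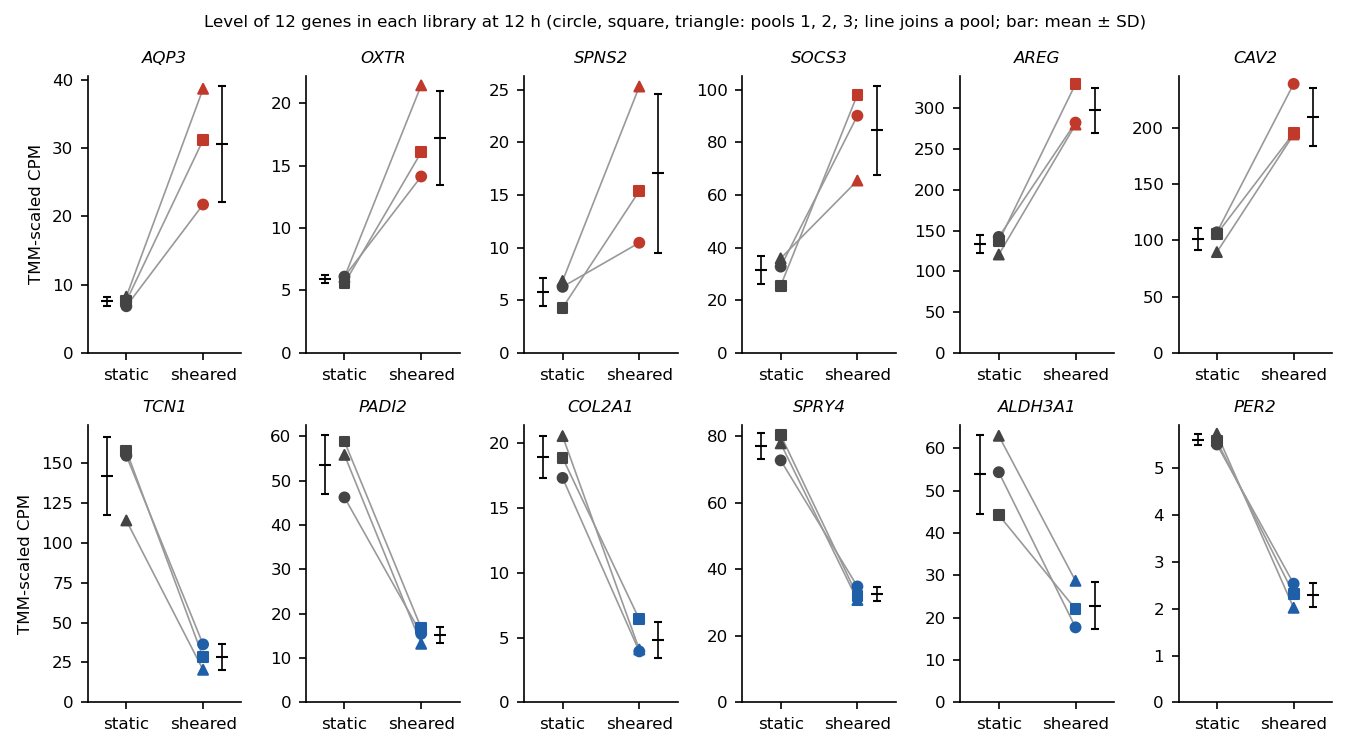
TMM-scaled CPM of 12 genes in each of the 6 libraries, with lines joining the 2 libraries of a pool and bars for the mean and SD (n = 3) of each treatment. In all 12 panels the 3 sheared points lie on 1 side of the 3 static points.

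Among the largest falls, FCGR2A, an Fc receptor for IgG that is best known from myeloid cells, had 10.1, 14.2 and 8.62 CPM in the static libraries and 2.93, 1.4 and 1.39 CPM in the sheared libraries. The libraries did not overlap, and the change was -2.55 ± 0.29 (adjusted p = 4.82e-05). Markers of haematopoietic cells otherwise summed to the overlapping ranges given above, but most of that was CD68 (35.9 to 38.8 CPM static, 34.7 to 50.8 CPM sheared). LYZ (0.466 to 0.915 CPM static, 0.216 to 0.348 CPM sheared) was lower in every sheared library, on 51 counts in all. PTPRC (0.155 to 0.329 CPM static, 0.0926 to 0.149 CPM sheared) was too, on 20 counts. LYZ did not pass, and the libraries of CD14 and ITGAM overlapped. TCN1, a vitamin B12-binding protein of secretions, had 155, 158 and 114 CPM in the static libraries and 36.4, 28.4 and 20.4 CPM in the sheared libraries. MAB21L3 went from 64 ± 8.17 to 19.5 ± 5.22 CPM and NTSR1, the neurotensin receptor, from 57 ± 8.4 to 21.2 ± 3.88 CPM. ZC3H12C, of the Regnase family of RNA-binding nucleases, was the most abundant of the 15 largest falls by fold, with 165, 199 and 163 CPM in the static libraries and 70.9, 61.6 and 73.5 CPM in the sheared libraries and a change of -1.35 ± 0.13. COL2A1, the fibrillar collagen of cartilage, had 17.3, 18.9 and 20.6 CPM in the static libraries and 3.94, 6.42 and 4.08 CPM in the sheared libraries. COL8A1, a short-chain collagen, and HAPLN1, which links hyaluronan to proteoglycans, fell as well, with log2 fold changes of -1.55 and -1.52, and so did KCNK5, an acid-sensitive potassium channel (-1.53). LINC01547, a long noncoding RNA, went from 90.4 ± 10.4 to 33.2 ± 6.81 CPM. The adjusted p rose above 0.05 for NTSR1 without pool 1 or pool 2 (adjusted p 0.0557 to 0.0597).

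The 10 rises that moved the most counts were FTH1, EEF1A1, ACTG1, MAL2, the keratin KRT81 and 5 ribosomal proteins. FTH1, the heavy chain of ferritin, went from 10270 ± 705 to 15990 ± 651 CPM. EEF1A1, which brings aminoacyl-tRNA to the ribosome, had 8092, 7349 and 7752 CPM in the static libraries and 12659, 11976 and 9414 CPM in the sheared libraries, and these did not overlap. MAL2, a membrane protein of apical transport, went from 2883 ± 148 to 4038 ± 393 CPM and KRT81 from 2116 ± 477 to 4100.4 ± 276 CPM. Among the falls that moved the most counts, LRATD2 had 1263, 1364 and 1366 CPM in the static libraries and 759, 844 and 844 CPM in the sheared libraries, and SCD, which puts the first double bond into fatty acids, had 1171, 1164 and 1204 CPM in the static libraries and 733, 671 and 441 CPM in the sheared libraries. NRP1, a co-receptor for semaphorins and VEGF, went from 778 ± 34.7 to 458 ± 18.6 CPM. HAS3, a hyaluronan synthase, went from 809 ± 66.4 to 534 ± 55.2 CPM, NOX5, a calcium-activated NADPH oxidase, from 640.2 ± 39.97 to 420.4 ± 58.8 CPM, and APOBEC3C, a cytidine deaminase, from 687 ± 99.4 to 430.01 ± 81.2 CPM. For each gene given with values so far in this paragraph the sheared libraries lay on 1 side of the static ones. Among the 5 ribosomal proteins, RPL8 overlapped, at 2894, 2607 and 4521 CPM in static and 4306, 6757 and 5217 CPM in sheared libraries. The threshold was missed by RPL8 without pool 2, and by EEF1A1, RPL13A, RPLP0 and RPS24 without pool 1 or pool 2. MAL2 missed it without pool 1 or pool 3, NOX5 without pool 2 or pool 3, and HAS3 without any one of the pools (adjusted p 0.0552 to 0.141 over all of these). Scaling by library totals also lost MAL2 (adjusted p 0.0818).

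**Figure D3:**
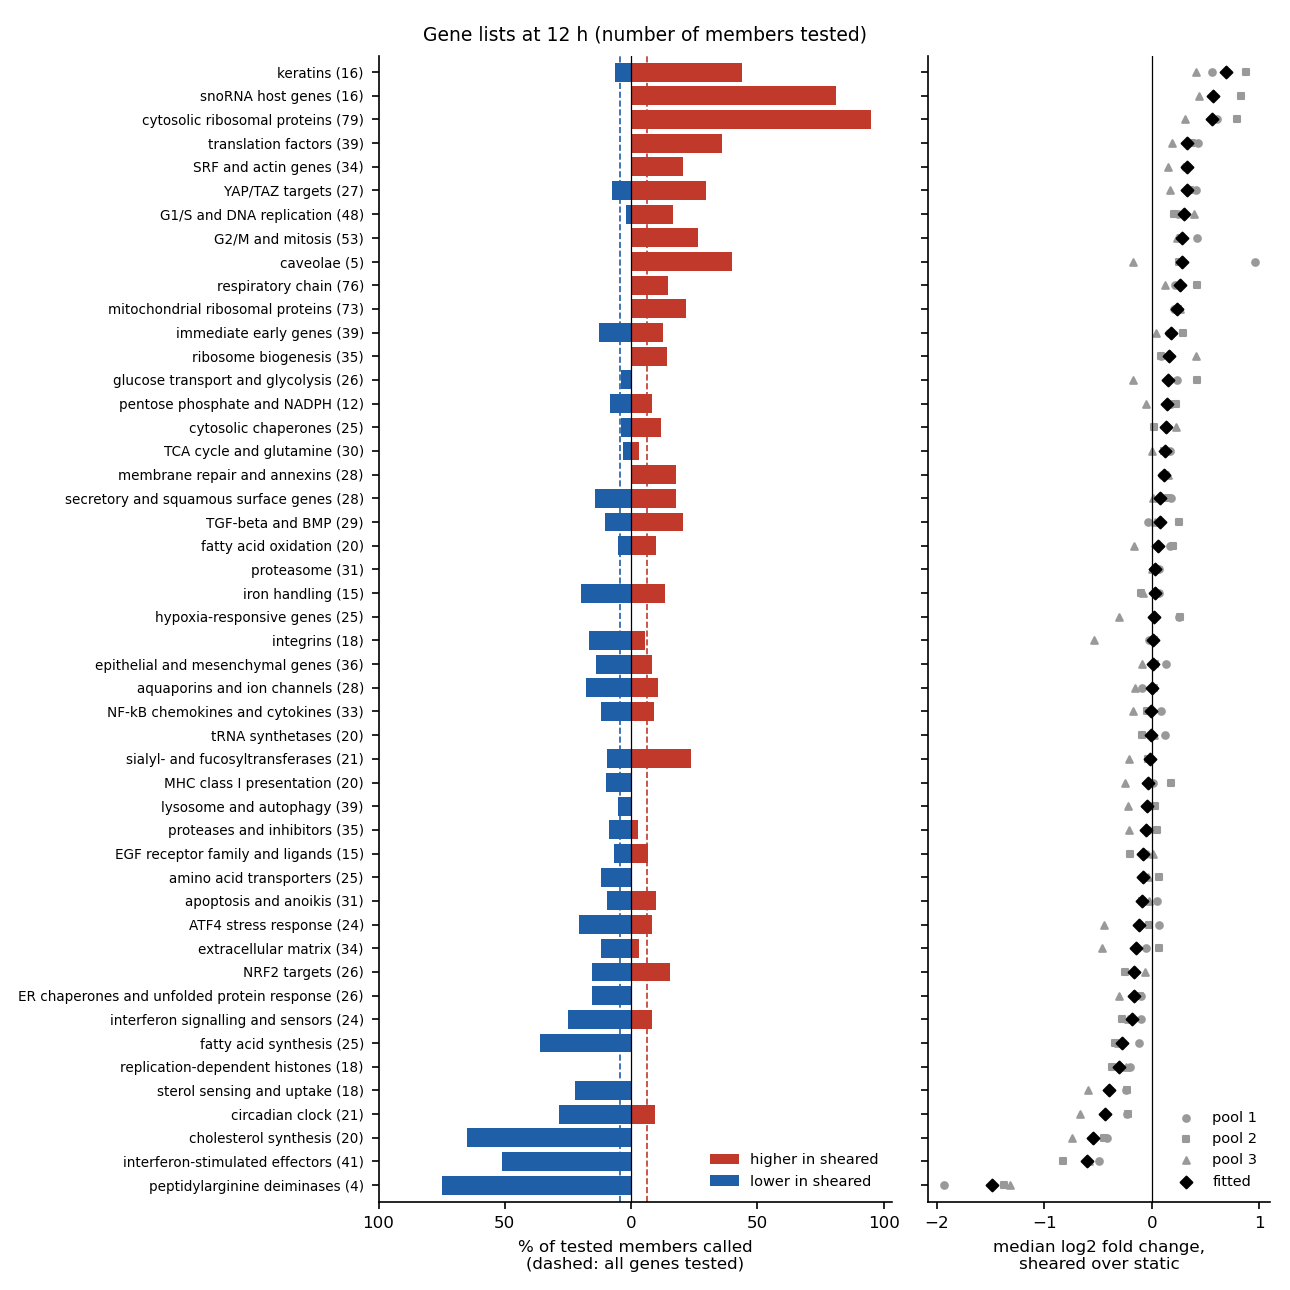
Percent of the tested members of each of 48 gene lists that rose (right) or fell (left) at 12 h, with dashed lines at the background of 6.29% and 4.55%, and the median log2 fold change of each list in each pool. Ribosomal proteins and snoRNA host genes reach furthest to the right, and the 4 peptidylarginine deiminases, cholesterol synthesis and interferon effectors to the left.

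Enzymes of cholesterol synthesis fell as a group: 13 of 20 tested members fell (background 4.55%) and none rose, with a median of -0.55 against -0.01 over all genes. The falls began at the entry to the pathway, with ACAT2, at 70.9 ± 2.09 and 44.5 ± 4.44 CPM, and HMGCS1, at 154 ± 6.9 and 91.5 ± 6.86 CPM. They ran on through MVK (-0.56), FDPS (-0.48), FDFT1 (-0.57), the first step committed to sterols, and LSS (-0.61), which closes the sterol rings. CYP51A1, the demethylase of lanosterol, had 179, 186 and 168 CPM in the static libraries and 109, 101 and 107 CPM in the sheared libraries, a change of -0.75 ± 0.11 (adjusted p = 3.80e-04). TM7SF2 (-0.73) and DHCR7 (-0.55), late reductases, fell, whereas NSDHL, EBP and PMVK had changes of -0.28 ± 0.13, 0.08 ± 0.12 and 0.09 ± 0.16 that did not pass. Of 18 genes of sterol sensing and uptake, 4 fell and none rose. Among them were SREBF1, the SREBP gene most tied to fatty acid synthesis (173 ± 24.8 to 108 ± 9.53 CPM, -0.67 ± 0.10), and ABCA1, a cholesterol exporter that LXR and not SREBP induces (-0.80). SREBF2, the main regulator of the sterol enzymes, was at 120.3 ± 10.7 and 96.2 ± 10.5 CPM with a change of -0.33 ± 0.12 (adjusted p = 0.102). The letters TCAC, any base and CCAC, a form of the sterol regulatory element, were in 0 of the 15 cholesterol genes with a promoter sequence, in 9 of all genes that fell (1.64%) and in 170 of all with a promoter (1.43%), from which nothing follows about SREBP. The cholesterol count was 9, 7 and 4 without pools 1, 2 and 3, and 1 of the 20 fell without the block for pool. No call was made for DHCR7 without pool 3, ABCA1, FDPS and TM7SF2 without pool 1 or pool 3, FDFT1 without pool 2 or pool 3, and HMGCS1 and MVK without any one of the pools (adjusted p 0.0541 to 0.162).

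Of 25 genes of fatty acid synthesis, 9 fell and none rose, with a median of -0.28. They covered the supply of acetyl-CoA (ACSS2), its carboxylation (ACACA, -0.56), chain synthesis (FASN, 695 ± 84.6 to 433 ± 99.8 CPM), the 3 desaturases SCD, FADS1 and FADS2, activation (ACSL1, -0.69) and use for glycerolipids (LPIN1, 188 ± 16.9 to 111 ± 5.04 CPM). The elongases ELOVL1, ELOVL5 and ELOVL6 lay between -0.07 and 0.14 and ACLY, which makes acetyl-CoA from citrate, at -0.46 ± 0.17, and none of these passed. The count was 8 whichever pool was left out and 4 without the block for pool. Of 20 genes of fatty acid oxidation, 2 rose (10%) and 1 fell (5%, near the background of 4.55%). The rises were PDK4 (0.82), which blocks pyruvate entry and favours fat as fuel, and PPARD (158 ± 8.24 to 251 ± 19.4 CPM), a lipid-sensing nuclear receptor. Calls were lost for FASN without pool 3, and PDK4 without pool 1 or pool 2 (adjusted p 0.098 to 0.306). With library totals as the only scaling, PDK4 was lost (adjusted p 0.0751).

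**Figure D4:**
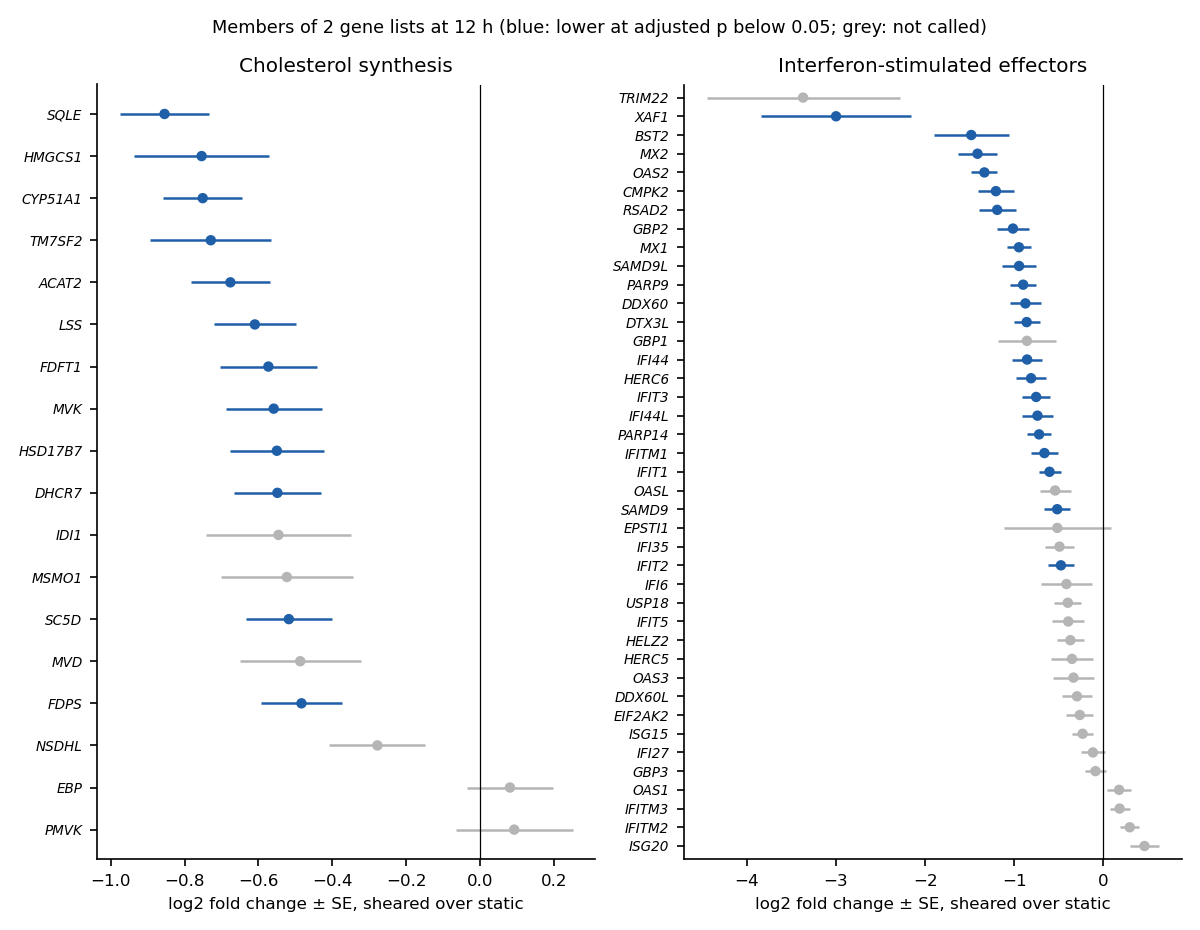
Log2 fold change at 12 h with its standard error for 18 tested members of the cholesterol synthesis list and the 41 of the interferon effector list, coloured by whether it passed the threshold. Nearly all bars of both lists lie left of 0, with PMVK, EBP, ISG20, IFITM2, IFITM3 and OAS1 to the right.

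Of the lists described, the interferon-stimulated effectors held the most falls by number, though not by share. Of 41 tested, 21 fell (51.2%, background 4.55%) and none rose, with a median of -0.60. The share was 65% for cholesterol synthesis and 75% for the 4 peptidylarginine deiminases tested. Type I interferon induces these genes through a STAT and IRF9 complex that binds the interferon-stimulated response element (ISRE), searched here on both strands as GAAA, any 2 bases and GAAA again in the 300 bases around RefSeq starts (250 before and 50 after, GRCh38.p14). The letters were found in 26 of the 33 effectors with a promoter sequence (78.8%) and in 473 of all 11904 tested genes that had one (3.97%). Stretches with the element in capitals are printed for 6 genes that fell, 5 of them antiviral effectors and IFIH1 a sensor of viral RNA, and then for 3 effectors that did not pass. These 9 genes were chosen after their values were seen.
RSAD2, chr2:6877612-6877661, plus strand: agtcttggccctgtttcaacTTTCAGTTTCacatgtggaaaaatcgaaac
IFIT1, chr10:89392487-89392549, plus strand: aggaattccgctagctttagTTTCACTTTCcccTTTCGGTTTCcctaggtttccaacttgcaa
IFI44, chr1:78649751-78649788, plus strand: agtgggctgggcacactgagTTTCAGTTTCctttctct
PARP9, chr3:122564312-122564361, minus strand: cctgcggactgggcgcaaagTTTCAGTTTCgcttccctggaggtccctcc
DDX60, chr4:168318776-168318860, minus strand: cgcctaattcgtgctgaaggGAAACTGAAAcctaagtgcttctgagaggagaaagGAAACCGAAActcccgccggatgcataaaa
IFIH1, chr2:162318685-162318725, minus strand: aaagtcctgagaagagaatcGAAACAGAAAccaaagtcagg
ISG15, chr1:1013364-1013419, plus strand: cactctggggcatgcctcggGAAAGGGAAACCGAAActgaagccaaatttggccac
IFI6, chr1:27672256-27672327, minus strand: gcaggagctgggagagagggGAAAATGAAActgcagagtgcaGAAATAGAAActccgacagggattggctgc
EPSTI1, chr13:42992262-42992311, minus strand: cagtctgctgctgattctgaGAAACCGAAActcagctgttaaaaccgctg

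The element itself did not separate the effectors that fell from the others: it was in 13 of 17 promoters of those that fell (76.5%) and in 13 of 16 of those that did not (81.2%). Among all genes that fell it was in 42 of 548 promoters (7.66%), or in 28 of 526 (5.32%) with the interferon lists left out, and among genes that rose in 27 of 740 (3.65%). A match of letters is a description and not a bound site. RSAD2, whose element lies 145 bases before the start and whose product viperin makes a chain-terminating nucleotide, had 10.2, 10.8 and 11.5 CPM in the static libraries and 5.8, 3.91 and 4.66 CPM in the sheared libraries. The libraries did not overlap, and the change was -1.19 ± 0.21 (adjusted p = 0.00174). IFIT1, with the element at 116 and 103 bases before its start, binds viral RNA lacking cap methylation and went from 40.3 ± 2.75 to 26.6 ± 3.16 CPM, and IFI44 fell (-0.86). The element printed for PARP9 is shared with its divergent neighbour DTX3L, whose product it works with as an ADP-ribosylating ubiquitin ligase. PARP9 went from 53.2 ± 6.32 to 28.6 ± 4.17 CPM and DTX3L from 55.1 ± 5.21 to 30.5 ± 5.34 CPM. DDX60, a helicase with the element at 88 and 53 bases before its start, had 21.7, 24.7 and 19 CPM in the static libraries and 13.2, 12 and 10.4 CPM in the sheared libraries. ISG15, a ubiquitin-like modifier whose promoter holds the element in overlapping copies, was at 180.3 ± 18.4 and 153 ± 13.4 CPM with a change of -0.23 ± 0.12 (adjusted p = 0.219). IFI6 had a change of -0.42 ± 0.28 and EPSTI1, at only 0.429 ± 0.113 CPM in static cells, one of -0.52 ± 0.60. Significance was lost for DDX60, IFI44 and IFIT1 without pool 2 (adjusted p 0.0731 to 0.0894).

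Other effectors that fell included MX1 (72.7 ± 6.51 to 37.8 ± 4.99 CPM), a GTPase that blocks viral replication, CMPK2 (14.4 ± 0.843 to 6.28 ± 0.893 CPM) and OAS2 (36.6 ± 5.6 to 14.5 ± 2.49 CPM), which activates RNase L. Those with values above 0 were OAS1 (0.18), IFITM3 (0.18), IFITM2 (0.29) and ISG20 (0.46), none of which passed. The IFITM genes are near-identical copies, so their counts are uncertain. In the 24-gene list of sensors and signalling, 6 fell: STAT2 (67.4 ± 3.55 to 40.1 ± 1.86 CPM), IRF9 (34.9 ± 2.16 to 23.3 ± 1.69 CPM), the RNA sensors IFIH1 (27.9 ± 3.5 to 16 ± 5.9 CPM) and RIGI (-0.70), the DNA-sensing adaptor STING1 (-0.59) and the interferon gamma receptor chain IFNGR1 (-0.55). Those that rose were SOCS3 and JAK2 (0.53). IRF1 had a change of -0.34 ± 0.21 (adjusted p = 0.317) and did not pass. Of 20 MHC class I genes only TAPBP and ERAP2 fell (-0.48 and -0.60) and none rose. The number of effectors that fell was 16 without pool 1, 8 without pool 2, 16 without pool 3 and 8 without the block for pool. Calls did not hold for IRF9 and RIGI without pool 2, JAK2, STING1 and TAPBP without pool 1 or pool 3, IFIH1 and IFNGR1 without pool 2 or pool 3, and ERAP2 without any one of the pools (adjusted p 0.0551 to 0.263). Under scaling by library totals, JAK2 was lost (adjusted p 0.0785).

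Ribosomal protein mRNAs and snoRNA host genes mostly rose, while smaller shares of the translation factors and of the ribosome biogenesis genes did. Of 79 cytosolic ribosomal proteins, 75 rose (background 6.29%) and none fell, with a median of 0.56 and medians of 0.60, 0.80 and 0.31 in pools 1, 2 and 3. Together they took 7.44% ± 0.465 of static and 9.86% ± 0.452 of sheared counts. RPL23A had 547, 485 and 549 CPM in the static libraries and 768, 866 and 786 CPM in the sheared libraries, RPS12 went from 553 ± 110.4 to 908 ± 104 CPM, and the changes were 0.61 ± 0.11 and 0.73 ± 0.13. Ribosomal proteins have many processed pseudogenes, and reads of near-identical copies may have been split or dropped by the counting. Of 39 translation factors, 14 rose and none fell, with a median of 0.33. Elongation factors led: EEF1D (819.6 ± 69.8 to 1269 ± 226 CPM), EEF2 (0.60), EEF1G (0.51) and EEF1B2 (0.48) rose, with PABPC4 (169.5 ± 6.78 to 249.8 ± 20.02 CPM), a poly(A)-binding protein, and TPT1 (0.45). Of the initiation factors, EIF2S3 (0.46), EIF6 (0.51) and the eIF3 subunits EIF3E, EIF3F and EIF3G (0.40 to 0.49) rose. EIF4E, which binds the cap, EIF4G1, its scaffold, and EIF5 had changes of 0.23 ± 0.13, -0.23 ± 0.12 and -0.32 ± 0.18 and did not pass. Of 16 snoRNA host genes, noncoding RNAs that carry the same oligopyrimidine tract, 13 rose, among them GAS5 (27.1 ± 2.84 to 45.3 ± 3.95 CPM), SNHG1 (29 ± 0.809 to 47.4 ± 2.31 CPM) and SNHG29 (0.62). Of 35 genes of ribosome biogenesis, 5 rose: BOP1 (0.84), NOP10 (0.70), NHP2 (0.54), FBL (0.52) and NPM1 (0.45). The ribosomal protein count was 36, 17 and 76 without pools 1, 2 and 3, 42 without the block for pool and 70, with a median of 0.41, with library totals as the only scaling. That of the translation factors was 2, 2 and 17 without the pools in turn, and that of the snoRNA hosts 5, 3 and 11. Without the block for pool, 2 translation factors, 3 snoRNA hosts and no ribosome biogenesis gene rose. The adjusted p rose above 0.05 for BOP1, EIF6, NHP2 and SNHG29 without pool 2, EEF1B2, EEF1D, EEF1G, EEF2, EIF2S3, EIF3F, EIF3G, FBL, NPM1 and TPT1 without pool 1 or pool 2, and EIF3E without pool 1 or pool 3 (adjusted p 0.0516 to 0.298). With library totals as the only scaling, EIF2S3, EIF3E, EIF3F, EIF3G, EIF6, NHP2 and NPM1 were lost (adjusted p 0.0581 to 0.0994).

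Nuclear genes for mitochondrial proteins also rose where they passed, in smaller shares. Of 73 mitochondrial ribosomal proteins, 16 rose and none fell (median 0.23), led by MRPL12 (104 ± 14.8 to 167 ± 22.1 CPM), MRPL34 (0.73) and MRPL14 (0.68). Of 76 respiratory chain subunits, 11 rose and none fell (median 0.26). They came from several complexes, with COX5A of cytochrome oxidase (82.4 ± 10.8 to 118 ± 16.2 CPM), ATP5F1D of ATP synthase (0.50), CYC1 of complex III (0.48) and NDUFA7 of complex I (0.52). With library totals as the only scaling each list had 3 rises, and they had 2 and 0 both without pool 2 and without the block. In glycolysis and glucose transport, 1 of 26 fell (3.85%, near the background of 4.55%), the transporter SLC2A6 (-0.63), and none rose. HK2, which traps glucose in the cell, was at 306, 292 and 305 CPM in static and 462, 445 and 244 CPM in sheared cells and had a change of 0.30 ± 0.26 (adjusted p = 0.53). LDHA and SLC2A1 had changes of 0.18 ± 0.12 and 0.02 ± 0.19, and the groups overlapped for all 3 genes. Of 30 genes of the TCA cycle and glutamine use, 1 rose and 1 fell (3.33% each, below the background). The fall was PDK3, a kinase that blocks pyruvate entry (-0.49). Of 12 genes of the pentose phosphate pathway and NADPH, the cytosolic NADPH source IDH1 fell (186 ± 16.8 to 114 ± 16.8 CPM) and RPIA, a pentose phosphate isomerase, rose (0.45). Each is 8.33% of the list. The threshold was missed by COX5A, MRPL34 and NDUFA7 without pool 2, ATP5F1D and CYC1 without pool 1 or pool 2, SLC2A6 without pool 1 or pool 3, PDK3 without pool 2 or pool 3, and RPIA without any one of the pools (adjusted p 0.052 to 0.193). Scaling by library totals also lost NDUFA7 and RPIA (adjusted p 0.0609 to 0.195).

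Stress pathway genes that passed went both ways, some in shares near the background of 6.29% higher and 4.55% lower. Of 24 genes of the ATF4 response, which amino acid shortage or unfolded protein induces, 5 fell (20.8%) and 2 rose (8.33%, near the background). TRIB3, a pseudokinase that damps ATF4, had 585, 627 and 738 CPM in the static libraries and 294, 307 and 273 CPM in the sheared libraries, and its libraries did not overlap. CHAC1, which degrades glutathione (-1.05), NUPR1 (-0.78), STC2 (-0.64) and ASNS, asparagine synthetase (-0.42), were the other falls. The rises were CTH, which makes cysteine from cystathionine, from 8.73 ± 0.453 to 19.2 ± 2.7 CPM (1.13 ± 0.14), and MTHFD2, a mitochondrial folate enzyme (0.47). ATF4 mRNA had a change of -0.22 ± 0.12 (adjusted p = 0.275), and no tRNA synthetase of 20 passed. A form of the ATF4 element (TGATG, any base and AA) was in 14 promoters of genes that fell (2.55%), 26 of genes that rose (3.51%) and 330 of all (2.77%). DNAJB9 (22.3 ± 2.71 to 10.6 ± 1.95 CPM), DNAJC3 (-0.62), EDEM1 (187 ± 9.58 to 125 ± 4.88 CPM) and SEL1L (-0.37), which serve folding and disposal in the endoplasmic reticulum, were the 4 of 26 that fell in that list (15.4%), and none rose. In the list of 25 chaperones, BAG3, a partner of HSP70 in disposing of damaged filaments, had 171, 161 and 184 CPM in the static libraries and 84, 78.5 and 80.6 CPM in the sheared libraries and a change of -1.08 ± 0.11, and the mitochondrial chaperonins HSPD1 and HSPE1 and the HSP90 partner FKBP4 rose by 0.51, 0.71 and 0.41. The chaperone list thus had 3 rises (12%) and 1 fall (4%, near the background). Of 31 proteasome subunits none passed. No call was made for DNAJB9, DNAJC3 and HSPE1 without pool 2, MTHFD2 without pool 1 or pool 2, NUPR1 without pool 2 or pool 3, and ASNS, CHAC1, FKBP4, HSPD1, SEL1L and STC2 without any one of the pools (adjusted p 0.0659 to 0.27). Under scaling by library totals, FKBP4, HSPD1, HSPE1 and MTHFD2 were lost (adjusted p 0.0515 to 0.125).

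NRF2 target genes went both ways, with 4 rises and 4 falls among 26. HMOX1, haem oxygenase, which frees iron from haem, had 33.7, 42.9 and 47.4 CPM in the static libraries and 16.6, 21.7 and 18.9 CPM in the sheared libraries, a change of -1.11 ± 0.13 (adjusted p = 6.65e-05). SLC7A11, which imports cystine for glutathione, went from 75.9 ± 8.35 to 25.6 ± 3.84 CPM, AKR1B10 from 19.7 ± 2.87 to 6.73 ± 0.32 CPM, and GPX2, a glutathione peroxidase, fell too (-0.61). Rising members were the ferritin chains FTH1 and FTL (0.51), GPX4, which protects lipids from peroxidation (0.38), and thioredoxin TXN (0.31). The antioxidant response element through which NRF2 acts, searched as TGAC, any 3 bases and GC, was in 114 promoters of genes that fell (20.8%), 143 of genes that rose (19.3%) and 2275 of all (19.1%). NFE2L2, which encodes NRF2, had a change of -0.40 ± 0.13 (adjusted p = 0.0671). The iron exporter SLC40A1 (ferroportin) fell (-0.91). Outside the NRF2 list, ALDH3A1, an aldehyde dehydrogenase of epithelia, had 54.4, 44.3 and 63 CPM in the static libraries and 17.7, 22 and 28.7 CPM in the sheared libraries and its relative ALDH3B2 fell (-1.43). Of 25 amino acid transporters the falls were SLC7A11, SLC7A8 (7.63 ± 0.785 to 1.4 ± 0.271 CPM) and SLC43A2 (-0.85), and none rose. Calls were lost for FTL, GPX4, SLC40A1 and SLC43A2 without pool 1 or pool 2, and ALDH3B2, GPX2 and TXN without any one of the pools (adjusted p 0.0503 to 0.216). With library totals as the only scaling, GPX4 and TXN were lost (adjusted p 0.135 to 0.262).

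Growth factor signalling genes showed a mixed pattern. Among 39 immediate early genes and MAPK feedback genes, 5 rose and 5 fell. SPRY4, an inhibitor that ERK induces, had 72.7, 80.3 and 77.8 CPM in the static libraries and 34.8, 32 and 30.7 CPM in the sheared libraries and a change of -1.24 ± 0.14 (adjusted p = 3.18e-05). DUSP6, the phosphatase of ERK in the cytosol, went from 177 ± 6.79 to 95.3 ± 14.1 CPM. DUSP5, the nuclear phosphatase of ERK, moved the other way by 1.28. Within AP-1, FOSL1 rose from 465 ± 24.9 to 901 ± 58.7 CPM (0.95 ± 0.12) while JUN (-0.92) and JUND (-0.45) fell. AREG, an EGF receptor ligand, had 142, 137 and 121 CPM in the static libraries and 282, 329.7 and 280 CPM in the sheared libraries, a change of 1.16 ± 0.11 (adjusted p = 1.10e-05). EGF, the ligand of the same receptor, fell from 12.2 ± 0.354 to 8.07 ± 1.08 CPM, and EREG, at 2.77 ± 0.378 and 4.31 ± 0.326 CPM, did not pass. KLF5 rose by 0.62 and MYC from 68.1 ± 5.84 to 102 ± 13.9 CPM. Significance was lost for KLF5 without pool 1, JUND without pool 1 or pool 3, and DUSP5, EGF, JUN and MYC without any one of the pools (adjusted p 0.0527 to 0.227). Scaling by library totals also lost MYC (adjusted p 0.0634).

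TGF-beta family genes and their extracellular inhibitors were among the rises, with 6 of 29 higher and 3 lower. INHBA, which encodes the subunit of activin A, went from 70.3 ± 3.28 to 134 ± 28.5 CPM, and TGFB2 from 53.7 ± 9.93 to 99.8 ± 10.5 CPM. TGFB1 (0.58), LTBP1, which stores latent TGF-beta in matrix (0.55), and the transducer SMAD3 (0.33) rose too, as did GREM1, a BMP antagonist at very low level (0.498 ± 0.147 to 1.53 ± 0.166 CPM). The BMP-responsive ID2 fell from 21.3 ± 1.09 to 11.6 ± 2.14 CPM, and TGFB3 (-0.64) and SKIL (-0.47) fell as well. Of 33 NF-kB chemokine and cytokine genes, 3 rose (9.09%) and 4 fell (12.1%), against a background of 6.29% and 4.55%. CXCL6, a neutrophil chemokine, had 48.8, 44.4 and 45.1 CPM in the static libraries and 113, 121 and 88.8 CPM in the sheared libraries and IL6 went from 6.04 ± 1.61 to 10.8 ± 2.71 CPM. The falls were IL23A (18.2 ± 3.17 to 7.82 ± 1.01 CPM), the adhesion receptor ICAM1 (104 ± 4.86 to 57.2 ± 16.3 CPM), CSF3 (-2.91) and CXCL10. CXCL10, which interferon also induces, had 1.11, 1.18 and 0.867 CPM in the static libraries and 0.225, 0.0965 and 0 CPM in the sheared libraries, so its change of -3.34 ± 0.62 rests on very few counts. Calls did not hold for CXCL10 and ID2 without pool 2, CXCL6, LTBP1, SKIL and TGFB1 without pool 1 or pool 2, GREM1 without pool 2 or pool 3, and CSF3, ICAM1, IL6, SMAD3 and TGFB3 without any one of the pools (adjusted p 0.0535 to 0.381). Under scaling by library totals, LTBP1 and SMAD3 were lost (adjusted p 0.0511 to 0.239).

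Genes of caveolae and the cytoskeleton rose where they passed. CAV2, the partner of caveolin 1, had 107, 106 and 89.6 CPM in the static libraries and 239, 195 and 194 CPM in the sheared libraries, a change of 1.05 ± 0.10 (adjusted p = 1.10e-05), and CAV1 went from 346 ± 18.7 to 684 ± 21.4 CPM. Of the cavins, which coat caveolae, CAVIN4 alone had enough counts to test, at 1.84 ± 0.125 and 1.74 ± 0.59 CPM, and it did not pass. Of 34 SRF and actin genes, 7 rose and none fell, and 4 of them were tubulins: TUBA1B (1215 ± 95.3 to 2172 ± 391 CPM), TUBB (0.80), TUBB2A (0.67) and TUBB6 (0.60). The others were ACTG1, FHL2, a LIM protein of stress fibres (55.3 ± 2.48 to 92.7 ± 5.0 CPM), and the light chain MYL6 (0.45). Actin and tubulin genes have near-identical copies, so their counts are uncertain. Of 27 YAP and TAZ targets and partners, 8 rose and 2 fell. Rising were AMOTL2 (1.08), NT5E (20.6 ± 1.29 to 37.9 ± 5.36 CPM), AXL, a receptor kinase (42.1 ± 5.56 to 72.1 ± 9.88 CPM), AJUBA (0.81) and TEAD4, which binds DNA for YAP (10.9 ± 0.885 to 20.1 ± 2.41 CPM). WWTR1, which encodes TAZ itself, fell from 309 ± 37.4 to 194 ± 8.53 CPM. The classical targets CCN1 and CCN2 had changes of 1.09 ± 0.34 (adjusted p = 0.0825) and 0.26 ± 0.38 (adjusted p = 0.723). Of 28 membrane repair genes, 5 rose, with ANXA3 (59 ± 6.01 to 101 ± 8.04 CPM), ANXA2 (0.50) and its partner S100A10 (0.53) among them. The adjusted p rose above 0.05 for AMOTL2 without pool 1, S100A10 without pool 2, ANXA2, MYL6, TUBB and TUBB2A without pool 1 or pool 2, AJUBA and TUBB6 without pool 2 or pool 3, and TUBA1B without any one of the pools (adjusted p 0.0518 to 0.352). With library totals as the only scaling, ANXA2, MYL6 and TUBB6 were lost (adjusted p 0.0639 to 0.0955).

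Keratins and surface genes changed in both directions. Of 16 keratins on the list, 7 rose and 1 fell, and without the block for pool none passed. KRT7, of simple epithelia, had 489, 462 and 539 CPM in the static libraries and 903, 789 and 849 CPM in the sheared libraries, KRT8 went from 778 ± 49.4 to 1174 ± 97.8 CPM, and KRT80 (0.71) and KRT4 (0.85) rose. KRT81 (2116 ± 477 to 4100.4 ± 276 CPM), KRT86 (1.1) and KRT6A (1.74) were the other rises of the list. KRT83, which is not on the list but is one of the 15 largest rises by fold, went from 2.51 ± 0.383 to 9.43 ± 7.63 CPM. KRT81, KRT83 and KRT86 resemble each other closely and KRT6A has close copies, so reads may have been split. KRT15, a keratin of basal cells, fell from 185 ± 15.7 to 94.7 ± 16.5 CPM. In the list of 28 secretory and squamous surface genes, MUC5AC (18.3 ± 5.89 to 37.6 ± 11.6 CPM), a gel-forming mucin, TGM2 (116 ± 19.8 to 182 ± 19.3 CPM), a crosslinking enzyme, S100P (0.96), CEACAM6 (0.71) and PI3 (0.47) rose. S100A9 (244 ± 31.4 to 136 ± 4.16 CPM), TCN1, ALDH3A1 and ALDH3B2 fell. The citrullinating enzyme PADI2 had 46.2, 58.8 and 55.8 CPM in the static libraries and 15.5, 16.8 and 13.2 CPM in the sheared libraries, and PADI3 and PADI1 fell with it. Among 21 sialyl- and fucosyltransferases, which cap surface glycans, ST6GAL2 (8.01 ± 0.429 to 26.6 ± 3.53 CPM), ST6GALNAC4 (13.6 ± 2.62 to 26.9 ± 6.21 CPM), ST6GALNAC5 (1.07), ST3GAL6 (0.60) and ST6GALNAC6 (0.54) rose and ST3GAL1 (579 ± 24.6 to 399 ± 34.1 CPM) and ST6GALNAC2 (-0.74) fell. The threshold was missed by KRT86 and MUC5AC without pool 2, KRT80 without pool 3, KRT4, KRT6A, KRT8, PI3, S100P and ST6GALNAC6 without pool 1 or pool 2, ST6GALNAC2 without pool 1 or pool 3, KRT83 without pool 2 or pool 3, and ALDH3B2, CEACAM6, PADI1, ST3GAL6 and ST6GALNAC5 without any one of the pools (adjusted p 0.0522 to 0.274). Scaling by library totals also lost CEACAM6, KRT80, PI3, ST3GAL6, ST6GALNAC5 and ST6GALNAC6 (adjusted p 0.0502 to 0.126).

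Adhesion and matrix genes that passed mostly fell. Of 18 integrins, ITGB2, the beta chain of leukocyte integrins, had 60.3, 69.3 and 81 CPM in the static libraries and 31.9, 36 and 30.5 CPM in the sheared libraries and a change of -1.09 ± 0.13. ITGB6 (40.1 ± 5.4 to 25.1 ± 3.75 CPM) and its partner ITGAV (-0.44), which together activate latent TGF-beta, fell, and ITGAE rose by 0.47. Of 34 matrix genes 4 fell (11.8%) and LAMA4 alone rose (0.63), a share of 2.94% that is below the background. COL13A1, a membrane collagen, went from 138 ± 25.7 to 84.5 ± 18.3 CPM, COL4A6 and COL4A5, paired basement membrane chains, from 16.7 ± 2.44 to 8.19 ± 2.62 and from 31.8 ± 3.93 to 21.3 ± 1.27 CPM, and SPARC, at 1.04 ± 0.148 and 0.185 ± 0.0505 CPM, also passed. Of 35 proteases and inhibitors, 3 fell (8.57%) and 1 rose (2.86%). MMP1, interstitial collagenase, had 8.72, 6.56 and 8.57 CPM in the static libraries and 3.49, 3.14 and 3.46 CPM in the sheared libraries, ADAM12 (-0.75) and ADAM17 (-0.38), a sheddase, fell as well, and SERPINB1, an inhibitor of neutrophil proteases, rose (0.64). Of 36 epithelial and mesenchymal genes, 5 fell (13.9%) and 3 rose (8.33%), with members of both kinds among the falls, and none passed without the block for pool. Epithelial genes that fell were CDH1, E-cadherin (293 ± 18.9 to 206 ± 23.6 CPM), CLDN4 (-0.43), DSC2 (-0.49) and the epithelial regulator GRHL2 (-0.55), and the fifth fall was SPARC, counted on the mesenchymal side (-2.47). The mesenchymal factors TWIST1 (12.3 ± 3.4 to 23.1 ± 5.34 CPM) and SNAI2 (4.86 ± 1.17 to 8.91 ± 1.9 CPM) and the cadherin CDH2 (0.46) rose, while VIM, vimentin, had a change of -0.07 ± 0.31 (adjusted p = 0.913). Among 28 aquaporins and channels, 5 fell (17.9%) and 3 rose (10.7%). TRPV2 (-1.67), a cation channel, KCNN4 (86 ± 13.9 to 49.2 ± 8.88 CPM), a calcium-gated potassium channel, KCNK5, LRRC8B (-0.61), a subunit of volume-regulated anion channels, and CLCN3 (-0.56) fell. AQP3 and the potassium channels KCNK1 (149 ± 5.55 to 246 ± 16.4 CPM) and KCNMA1 (0.36) rose. No call was made for ADAM12 without pool 1, CDH1 and ITGB6 without pool 2, CLCN3, GRHL2, LAMA4, LRRC8B, SERPINB1 and TWIST1 without pool 1 or pool 2, SNAI2 without pool 1 or pool 3, COL4A5 and DSC2 without pool 2 or pool 3, and ADAM17, CDH2, CLDN4, ITGAE, ITGAV, KCNMA1, SPARC and TRPV2 without any one of the pools (adjusted p 0.0504 to 0.316). Under scaling by library totals, CDH2, ITGAE, KCNMA1, LAMA4 and SERPINB1 were lost (adjusted p 0.0507 to 0.177).

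Cell cycle genes that passed nearly all rose, by small amounts. Of 53 G2/M and mitosis genes, 14 rose and none fell, with a median of 0.28. CDK1 (0.67), the kinase of mitotic entry, UBE2C (118 ± 4.76 to 184 ± 12 CPM) and UBE2S (316 ± 22.6 to 484 ± 66.6 CPM), which work with the anaphase-promoting complex, CENPA (60.8 ± 6.05 to 93.4 ± 9.01 CPM) and BIRC5 (297 ± 33.6 to 425 ± 48.1 CPM), which encodes survivin, were among them. MKI67, CCNB1 and TOP2A had changes of -0.12 ± 0.15, 0.21 ± 0.11 and 0.37 ± 0.21 and did not pass. Of 48 G1/S and replication genes, 8 rose and 1 fell. CCNE1 (5.41 ± 0.911 to 10.9 ± 4.02 CPM), its kinase CDK2 (59 ± 3.04 to 88.1 ± 4.62 CPM), the licensing factors CDT1 (0.88) and ORC1 (0.82), and RRM2 (0.79), which makes deoxynucleotides, rose. CDKN2B, the inhibitor p15 that TGF-beta induces, fell from 86.1 ± 0.686 to 45.6 ± 3.22 CPM (-0.92 ± 0.11). MCM2, PCNA and CDKN1A had changes of 0.15 ± 0.20, 0.24 ± 0.27 and -0.16 ± 0.14. The G2/M count was 4, 1 and 11 without pools 1, 2 and 3 and 7 with library totals as the only scaling, and the G1/S count of rises was 3, 2 and 6 without the pools in turn. Without the block for pool no gene of either list rose. Calls were lost for BIRC5, CDT1, CENPA and UBE2S without pool 2, CDK1 and ORC1 without pool 1 or pool 2, and RRM2 without any one of the pools (adjusted p 0.0535 to 0.208).

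Of 21 circadian clock genes, 6 fell and 2 rose. PER2, a repressor of the clock that is also acutely induced by several signals, had 5.5, 5.57 and 5.73 CPM in the static libraries and 2.53, 2.32 and 2.02 CPM in the sheared libraries, a change of -1.3 ± 0.20 (adjusted p = 7.89e-04), and its libraries did not overlap. TEF, a PAR-bZIP factor that the clock drives, had 11.5, 13.3 and 18.3 CPM in the static libraries and 3.38, 3.76 and 4.75 CPM in the sheared libraries, and PER3 went from 4.19 ± 0.23 to 1.7 ± 0.145 CPM. CIART (-0.81), NR1D2 (55.4 ± 6.35 to 32.4 ± 8.2 CPM) and CRY2 (-0.62), all on the repressive side of the clock, fell too. BMAL2, a partner of CLOCK, rose from 215 ± 4.5 to 389 ± 23.1 CPM, as did the kinase CSNK1E (0.76), and CLOCK and BMAL1 had changes of 0.11 ± 0.12 and 0.50 ± 0.21 that did not pass. The number that fell was 4, 1 and 3 without pools 1, 2 and 3, and 2 without the block for pool. Significance was lost for PER3 and TEF without pool 2, CSNK1E without pool 1 or pool 2, NR1D2 without pool 2 or pool 3, and CIART and CRY2 without any one of the pools (adjusted p 0.0505 to 0.404). Scaling by library totals also lost CSNK1E (adjusted p 0.0847).

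Other lists had few calls. None of 25 hypoxia-responsive genes and none of 18 replication-dependent histone genes passed. The histone mRNAs lack poly(A) tails, and how mRNA was selected is not given in the sources used here. In the apoptosis and anoikis list of 31, 3 rose and 3 fell (9.68% each, against a background of 6.29% and 4.55%). BIK, BAD and BAX (0.78, 0.51 and 0.42), which promote cell death, rose. BCL2L11, the BH3 protein BIM tied to death after detachment, fell from 37.9 ± 3.4 to 26.8 ± 4.76 CPM, and the TRAIL receptors TNFRSF10A (-0.56) and TNFRSF10B (107 ± 6.49 to 75.7 ± 6.99 CPM) fell with it. SQSTM1, the autophagy receptor p62, fell from 406 ± 31.5 to 289 ± 16.3 CPM. It was one of the 2 that fell among 39 lysosome and autophagy genes (5.13%, near the background), and none rose. Calls did not hold for BAD, BAX, BIK and TNFRSF10A without pool 1 or pool 2, and BCL2L11 and SQSTM1 without any one of the pools (adjusted p 0.0609 to 0.345). Under scaling by library totals, BAD, BAX and BIK were lost (adjusted p 0.0565 to 0.151).

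Most genes called at 12 h were not called at 3 h, which does not show that they had no effect at 3 h. At 3 h 222 genes passed (1.46%) and at 24 h 2612 (17.2%), and the libraries of the 3 times are separate pools with separate controls. Of the 956 rises at 12 h, 46 (4.81%) were also called higher at 3 h and 528 (55.2%) at 24 h. Of the 691 falls, 16 (2.32%) were also called lower at 3 h and 407 (58.9%) at 24 h. The effect at 12 h differed from that at 3 h for 214 genes (1.41%) and from that at 24 h for 101 (0.665%), tested as contrasts of the same model. Of the 1647 genes called at 12 h, only 145 had an effect that differed from that at 3 h. The contrasts share the 12 h libraries. The 3 h libraries also carry another batch date in the labels than those of 12 h and 24 h, and shear is compared within a date. For PER2 the effect was 1.37 at 3 h and -1.3 at 12 h, a difference of -2.66 (adjusted p = 1.48e-04). The effect on FCGR2A was 0.07 at 3 h and -2.55 at 12 h, and that on MARCHF4 -0.19 and 1.93, differences of -2.62 and 2.12. The effect on FST was larger at 12 h than at 3 h by 0.76 (adjusted p = 0.0133).

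Of the called genes, 33 had an effect that differed from that at 24 h: 6 larger at 12 h in the same direction, 23 smaller and 4 of opposite sign. The last 4, named after their values were seen, were the mucins MUC2 (1.2 at 12 h, -0.71 at 24 h) and MUC5AC (1.03, -0.28), the kinase FRK (-1.16, 0.46) and SPHK1 (0.67, -0.44). OSBP2 was at 1.53 at 12 h and 0.26 at 24 h, a difference of 1.27 (adjusted p = 0.00918). HMOX1 and ALDH3A1 had larger falls at 12 h than at 24 h, with differences of -0.95 and -0.85. The G2/M list had a median of -0.39 at 3 h, 0.28 at 12 h and 1.28 at 24 h, and 31 of its 53 members differed between 12 h and 24 h. UBE2C, for example, was at -0.05, 0.65 and 2.01. The differences between times were not refitted without a pool or with other scaling. For the effect at 12 h itself, the adjusted p rose above 0.05 for MUC5AC without pool 2, and SPHK1 without pool 2 or pool 3 (adjusted p 0.0861 to 0.143). With library totals as the only scaling, the 12 h call of SPHK1 was lost (adjusted p 0.0677).

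**Figure D5:**
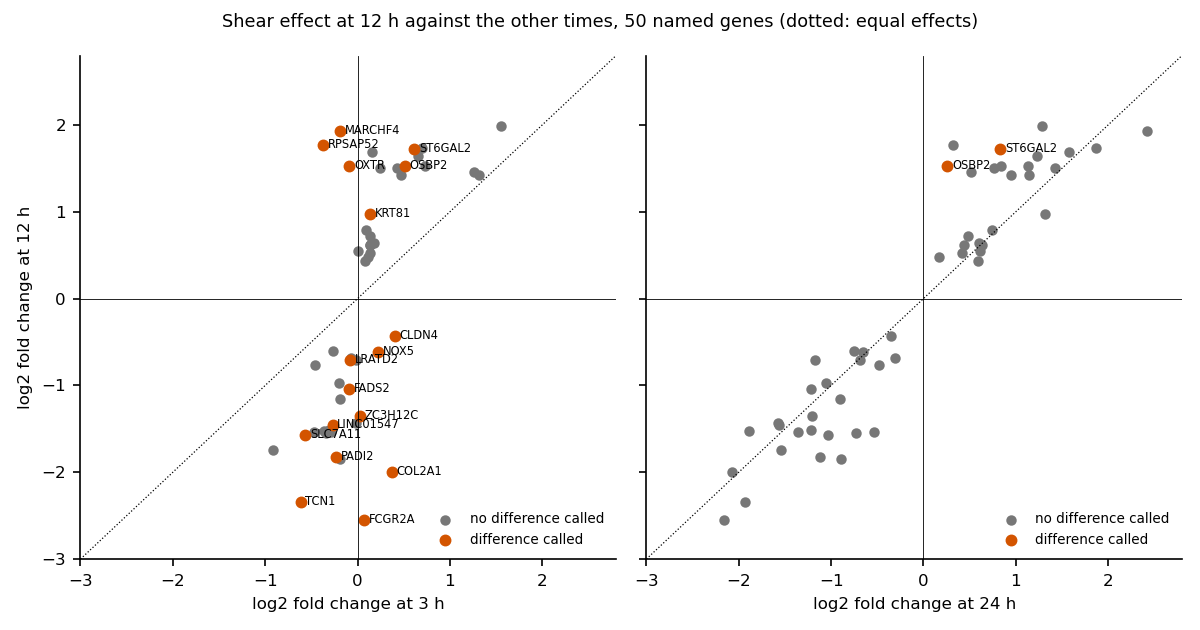
Log2 fold change of sheared over static cells at 12 h (y axis) against that at 3 h and at 24 h (x axes) for the 50 genes of the naming rule with the largest changes by fold or by counts, coloured by whether the difference between times passed. At 3 h most of the points lie close to 0, and at 24 h most lie on the same side of 0 as at 12 h.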

How the data were processed

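Cytosolic RNA of PC-3 cells was sequenced in 18 libraries, of which 6 are of 12 h. Per the submitters' processing notes, STAR aligned the reads to GRCh38.p13 and DESeq2 made the authors' tests. Not given in the sources used here are their versions, how reads were counted and whether strand was used. The authors deposited raw read counts for 28395 NCBI Gene IDs, not normalized, and symbols came from RefSeq (GRCh38.p14) for 27745. The authors' deposited table for 12 h holds, per the file headers, a mean normalized count (a signal averaged over libraries), log2 fold changes, a Wald statistic (a score), p-values and adjusted p-values. Only the last and the direction are used here. Reads were not analysed here.

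Members, gene lists and tests were chosen with earlier results of these data known. Genes were kept by filterByExpr (minimum count 10, minimum total 15), leaving 15189. Genes were tested with edgeR 4.0.16 under R 4.3.3: the quasi-likelihood F test (legacy fit, robust dispersion) with TMM factors. It was 1 model of all 18 libraries, with a block for each of 9 pools and 1 shear effect at each time, leaving 6 residual degrees of freedom. Benjamini-Hochberg adjustment ran over all genes, with calls at 0.05. Values are TMM-scaled CPM, except sums of marker lists and the levels of NORAD, MALAT1, NEAT1, CD68, PTPRC and LYZ, which use library totals. The sign ± marks the SD of 3 libraries for CPM and the standard error for a log2 fold change. The series' design states the pairing. Deviations from the group means correlated at 0.245, -0.148 and 0.199 between libraries of the same number and at -0.385 to 0.233 between others. Replicates differed by more than counting error (chi-square per degree of freedom 5.14 to 44.3), and nothing says the pools were independent cultures. With the block for pool, p-values measure how far the shear effect varied among pools of the same time, a spread shared over the times. An exact permutation test of 3 against 3 that ignores the pairing cannot go below p = 0.1. Swaps within the 3 pools allow fewer arrangements still, so none was run per gene.

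Named genes are the 15 largest rises and 15 largest falls by fold of called genes that moved alike in the 3 pools, averaged log2 CPM 2 or more and have a symbol other than a LOC number. To these come 10 rises and 10 falls that moved the most CPM, up to 5 members of each list by p, key regulators such as SREBF1, SREBF2, IRF1, IRF9, ATF4, NFE2L2 and MYC, and always a few others, among them MALAT1, NEAT1, HK2, LDHA and SLC2A1. Some of these genes are not reported here. Further list members are given to complete a group and were chosen after their values were seen. Alternatives were other scalings, no filter, no block, fewer libraries, DESeq2 1.42.0 and voom of limma 3.58.1. Promoters came from RefSeq for 11904 of the 15189 genes.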

Additional observations from a re-analysis of the deposited data

Results flagged for a closer look

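Effects of shear at 12 h that differed from those at 3 h or 24 h are given here as the 12 h log2 fold change minus that of the other time. Each difference was tested as a contrast of the same edgeR model at an adjusted p below 0.05 over all genes. In the labels the batch date of the 3 h libraries is not that of the later ones, and the part of the date was not tested. Among lipid genes the differences from 3 h were -0.95 for FADS2, -0.81 for FADS1, -0.86 for ACSS2, -0.87 for SQLE, -0.92 for CYP51A1, -0.76 for ACAT2, -0.61 for SREBF1 and -1.08 for ABCA1. Interferon-stimulated genes had -1.23 (OAS2), -1.57 (MX2), -0.92 (MX1) and -1.2 (CMPK2).

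Transport, redox and stress genes lower at 12 h than at 3 h were SLC7A8 (-2.92), SLC7A11 (-1.01), KCNN4 (-0.85), ALDH3A1 (-1.1), HMOX1 (-0.79), NOX5 (-0.84), DNAJB9 (-1.36) and SQSTM1 (-0.76). For signalling, clock and RNA-binding genes the values were -2.66 for PER2, 0.80 for BMAL2, -0.79 for SPRY4, -0.84 for DUSP6, -1.32 for HBEGF, -0.74 for TNFRSF10B, 1.61 for OXTR, 0.92 for AXL and -1.38 for ZC3H12C. HBEGF did not pass at 12 h itself, nor did COL1A1 and SERPINB5.

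Surface, keratin and secretory genes had differences from 3 h of -1.73 (TCN1), -2.62 (FCGR2A), -1.59 (PADI2), -1.0 (S100A9), -1.01 (KRT15), 0.84 (KRT81), 0.62 (KRT7), 0.98 (CAV1), 0.87 (CAV2), 0.82 (ANXA3), 1.11 (ST6GAL2), 0.84 (ST6GALNAC4) and -0.82 (ST3GAL1). Adhesion and matrix genes had -1.11 (ITGB2), -0.84 (CLDN4), -0.86 (SERPINB5), -2.37 (COL2A1), -1.13 (COL4A6) and -1.61 (COL1A1). Mitotic genes had 0.70 (UBE2C), 1.08 (CENPA) and 0.64 (BIRC5), and the remaining genes 2.12 (MARCHF4), 1.02 (OSBP2), -0.63 (LRATD2), 0.85 (GAS5), 2.14 (RPSAP52) and -1.19 (LINC01547).

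From 24 h fewer of the named genes differed. ST6GAL2 (0.89), OSBP2 (1.27), ST6GALNAC4 (0.95) and MUC5AC (1.31) were higher at 12 h, and ALDH3A1 (-0.85), HMOX1 (-0.95), UBE2C (-1.37) and CENPA (-0.81) lower.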

How the results depend on the processing

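The alternatives refitted the effects at 12 h only, not the differences between times. No 12 h result reversed in the alternatives run, but with library totals falls outnumbered rises. The pairing by pool was the design's, and without the replicate block 183 genes rose and 137 fell, with 131 of 220 named calls lost. Fitting 12 h and 24 h libraries only gave 433 and 368, and library totals without TMM factors gave 425 and 1441. Leaving out 1 replicate of any time gave 196 to 1553 rises and 165 to 1138 falls, the lowest without 12 h replicate 2 and the highest without 24 h replicate 3. The 12 h libraries alone (1162 and 932), RLE size factors (900 and 699), no filter (1296 and 900), DESeq2 (1080 and 793) and voom (1058 and 732) stayed within 1.5 times. Depth limits genes of a few counts, such as CXCL10 and EPSTI1. The cause of these differences was not tested.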
